A study of Rattus norvegicus with 12 samples.

Results

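The miR-450a cluster is a run of miRNA genes on the rat X chromosome, and its plasma levels were examined in pregnant and non-pregnant rats. Probes were chosen by name: after removal of the species prefix and of any arm ending, a probe had to read miR-450a, miR-322, miR-351, miR-503 or miR-542. This gave 6 of the 420 endogenous probes in a table of 429: rno-miR-450a, and as its cluster mates miR-322, miR-351, miR-503, miR-542-3p and miR-542-5p. The choice of miR-450a was made with its counts in these rats already known, so its levels are given as a description, with no test. The mates entered by their place in the genome, and the question asked of them was whether their levels follow those of miR-450a across the rats.

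All animals were female Wistar rats. The pregnant group held 6 rats at day E14.5 of gestation, aged 103 to 373 days, and the control group held 6 non-pregnant rats aged 110 to 269 days, with no other treatment in either. Each rat gave 1 sample of platelet-free plasma, from blood drawn from the heart after death, and a rice miRNA was spiked into every sample. miRNAs were counted with the NanoString nCounter, a hybridisation assay in which every imaged barcode adds 1 count to a probe. Endogenous counts summed to between 6969 and 10176 per control rat and to between 5163 and 30301 per pregnant rat, where pregnant rats 5 and 6 were the deepest with 24010 and 30301, and the median endogenous probe had 6 to 12 counts per rat. Plasma pools miRNA from all tissues, so a change in the number of releasing cells and a change in the RNA released per cell cannot be told apart.

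miRNAs pair through their seed, the bases near the 5′ end, with target mRNAs and lower their translation or stability. Hairpins that lie close together on 1 strand are often cut from a shared primary transcript, yet their mature products can differ widely in level, because cutting, loading and decay act on each of them separately. The miR-322 and miR-503 genes (miR-424 is the human name of miR-322) are known for restraining the cell cycle, and members of this cluster are known to be expressed in placenta and in embryonic and muscle tissue. The samples analysed here hold no placenta, so expression of the cluster in that organ was not checked.

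In the RefSeq annotation of the GRCr8 rat genome the cluster has 6 hairpins, at chrX:137720933-137726241 on the minus strand, a span of 5309 bases. In the direction of transcription the order is miR-322, miR-503, miR-351, miR-542, miR-450b and miR-450a, and 5 of the 6 hairpins have a probe. The hairpins of miR-322, miR-503 and miR-351 lie inside an annotated long non-coding RNA gene of 4249 bases, LOC102550366 (chrX:137724960-137729208). Those of miR-542, miR-450b and miR-450a lie outside any other annotated gene. The distance from miR-351 to miR-542 is 2861 bases, the widest in the cluster, and miR-450b and miR-450a are 54 bases apart. The nearest protein-coding gene is Plac1, a gene known for its expression in trophoblast, 14654 bases beyond the miR-322 end.

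The mature sequences of the cluster, from RefSeq, are shown because they set which miRNAs a probe could share with a relative. Capitals mark the seed, bases 2 to 8. The probes of miR-450a, miR-351, miR-503 and miR-322 are named without an arm, and the 5p sequence is printed for them.
rno-miR-450a-5p: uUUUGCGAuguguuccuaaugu
rno-miR-450b-5p: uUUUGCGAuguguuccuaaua
rno-miR-542-3p: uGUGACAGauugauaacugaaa
rno-miR-542-5p: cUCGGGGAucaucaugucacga
rno-miR-351-5p: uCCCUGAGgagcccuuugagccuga
rno-miR-503-5p: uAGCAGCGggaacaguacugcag
rno-miR-322-5p: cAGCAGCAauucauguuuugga
Relatives outside the cluster that carry the seed of miR-351 or of miR-322 were measured by probes of their own.
rno-miR-125b-5p: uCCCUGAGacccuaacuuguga
rno-miR-16-5p: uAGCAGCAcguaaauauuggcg
The products of the neighbouring miR-450a and miR-450b hairpins share their seed and their first 20 bases, and miR-450b has no probe of its own in the table, so how much of the miR-450a count came from miR-450b was not tested. Among the 693 mature rat miRNAs of the RefSeq table, the seed of miR-322 is held by 5, the others being miR-15b, miR-16, miR-195 and miR-497, and that of miR-351 by 3, with miR-125a and miR-125b. The seed of miR-503 matches that of miR-322 at 6 of 7 positions and is held by no other entry. The same is true of each arm of miR-542.

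miR-450a was an abundant probe in plasma and its cluster mates were not. The raw count of miR-450a was 90.8 ± 69.5 (SD, n = 12 rats), the 20th highest mean of the 420 endogenous probes. The mean raw counts of the 5 mates lay between 3.25 and 5.33, at ranks 275 to 370. miR-542-3p had the highest of these means and miR-503 the lowest. Probes differ in how well they capture their target, so these counts are not relative amounts of the miRNAs. A mean under 10 counts was common, being found for 234 of the 420 probes.

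**Figure D1:**
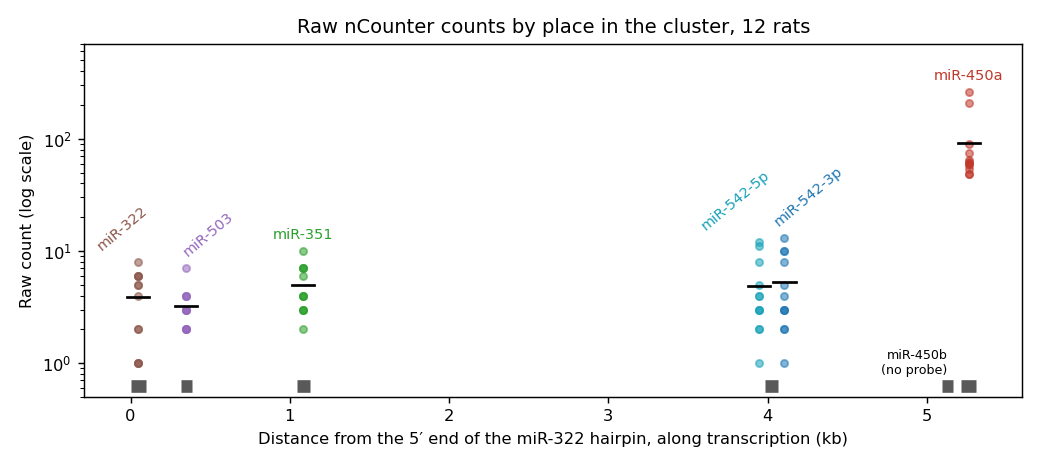
Raw count on a log scale (y axis) of each probe in the 12 rats, against the distance in kb from the 5′ end of the miR-322 hairpin (x axis); grey boxes are the 6 hairpins, points are rats, black lines are means, and the 2 arms of miR-542 are drawn side by side. Every miR-450a point, from 48 counts up, lies above every point of the 5 mates, which lie between 1 and 13.

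Background was set in each rat from the 4 exogenous probes for which no spike-in was added, which match no rat miRNA. Their mean per rat was 7.25 to 15.75 counts, and the mean + 1 SD was 12.6 to 32.4. Over the rats ath-miR159a and cel-miR-254 averaged 19.5 and 15.4 counts. cel-miR-248 and osa-miR442 averaged 3.58 and 4.5, which is the level of the mates. miR-450a exceeded the mean + 1 SD in 12 of 12 rats. Its margin was smallest in control 3, at 1.97 times this background, and largest in pregnant 6, at 12.6 times. Each of the 5 mates exceeded it in 0 of 12 rats, which by the exact (Clopper-Pearson) 95% interval allows up to 26.5% of rats. Of the 60 values of the mates, 3 exceeded even the background mean, namely miR-542-3p in pregnant 3 and pregnant 5 and miR-351 in pregnant 2. The mates shared this with most of the panel, since 230 of the 420 endogenous probes (54.8%) were above the mean + 1 SD in no rat, while 38 (9.05%) were above it in all. Against the mean + 1 SD of the 4 mRNA probes instead, miR-542-3p was above in 2 rats, miR-351 in 1 and the other mates in 0.

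**Figure D2:**
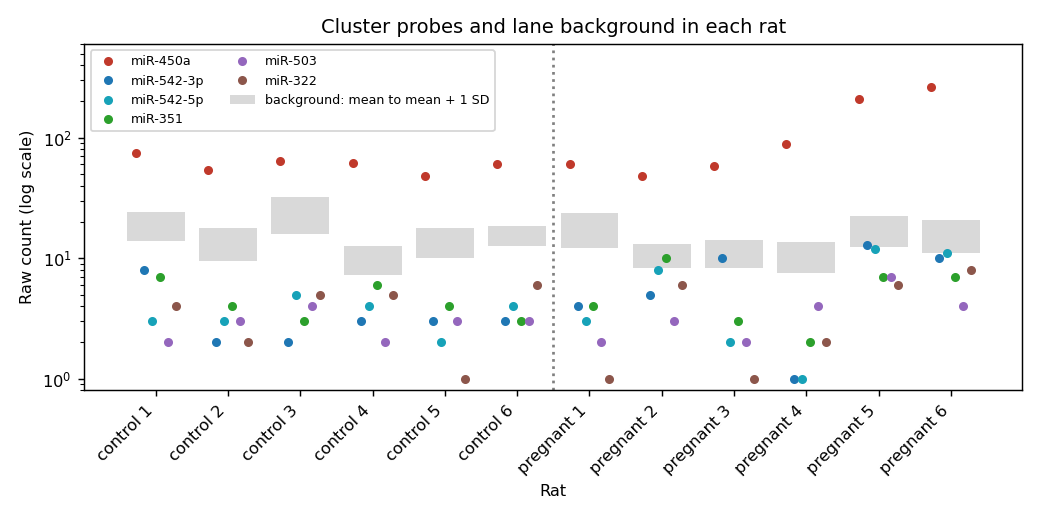
Raw count on a log scale (y axis) of the 6 cluster probes in each rat (x axis); grey bars run from the background mean to the mean + 1 SD of the 4 exogenous probes in that rat. miR-450a (red) lies above the bar in all 12 rats, by 1.97 to 12.6 times its upper end, while 0 of the 60 mate values pass the upper end and 3 pass the lower.

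In the control rats miR-450a was even. Its raw counts were 75, 54, 64, 62, 48 and 60 in controls 1 to 6, a mean of 60.5 ± 9.20 (SD, n = 6). In the pregnant rats they were 61, 48, 58, 89, 208 and 263, a mean of 121.2 ± 91.3 (SD, n = 6). Pregnant rats 1 to 3 lay within the control range, and pregnant rats 4, 5 and 6 lay above every control. The groups overlapped, and the larger pregnant mean was carried by 3 of 6 rats.

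The 2 rats with the most miR-450a were also the 2 with the most counts in all, so the picture depended on how depth was treated. CPM are counts scaled to a common total, and with TMM scaling that total is an effective one. Effective totals differed 1.94-fold between rats, where the unscaled totals of the same probes differed 7.04-fold. TMM CPM therefore leaves much of the difference in total counts in place. On this scale miR-450a stood at 6533 ± 523 in control rats and 10987 ± 5199 in pregnant rats (SD, n = 6 each). The pregnant values from rat 1 to rat 6 were 6932, 6043, 7323, 11977, 14398 and 19248 CPM, against 6007 to 7213 in controls. The log2 difference between pregnant and control rats in the edgeR fit was 0.75 (SE 0.30). On plain CPM, the share of a rat's endogenous total, the means drew together at 6801 ± 863 and 7841 ± 1854, and pregnant 5 and pregnant 6 fell to 8663 and 8680. On that scale pregnant 3 was the lowest of the 12 rats, with 4427 CPM, and pregnant 2 the highest, with 9297. Plain CPM gave a difference of mean log2 values of 0.17 (SE 0.18), where TMM CPM by the same measure gave 0.62 (SE 0.28). The edgeR fit scaled by the endogenous total gave 0.20 (SE 0.41).

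Content normalisations of the kind used by the assay software were computed as well, in which each rat is scaled by the geometric mean of chosen probes. The sets of normalisers were rebuilt here from the background of the 4 exogenous probes, with no positive control step, and are not the sets of the study. The log2 differences given for them are differences of mean log2 values, not edgeR values. With the total RNA method, which uses the 38 probes above background in all rats, 5 of 6 pregnant rats lay above every control. The log2 difference was 0.51 (SE 0.15). miR-450a is itself 1 of these 38 normalisers, and without it the difference was 0.52 (SE 0.16). The NormFinder method takes the 5 normalisers that are steadiest relative to the rest of each rat, and here miR-450a ranked as the steadiest of the 38, with a stability value of 0.113 against 0.232 for the next, miR-449c-3p. With these rebuilt sets it was therefore scaled in part by itself. With it among the 5 normalisers the log2 difference was 0.51 (SE 0.32), and with the other 4 alone it was 0.64 (SE 0.39). The ratio of the pregnant to the control mean rose from 1.61 to 1.88 when miR-450a was taken out. Under both forms pregnant 1 and pregnant 2 lay below every control.

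Across the 8 scales computed, pregnant rats 4, 5 and 6 lay above every control on each one. These scales include variants of the total RNA and NormFinder methods and are not separate checks. With the 4 NormFinder normalisers the factors ran only from 0.88 to 1.23, while endogenous totals differed 5.87-fold. That scale therefore stays near raw counts. The placing of pregnant 1, 2 and 3 changed with the scale. The ratio of the means was 2.003 on raw counts, 1.68 on TMM CPM and 1.15 on plain CPM.

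**Figure D3:**
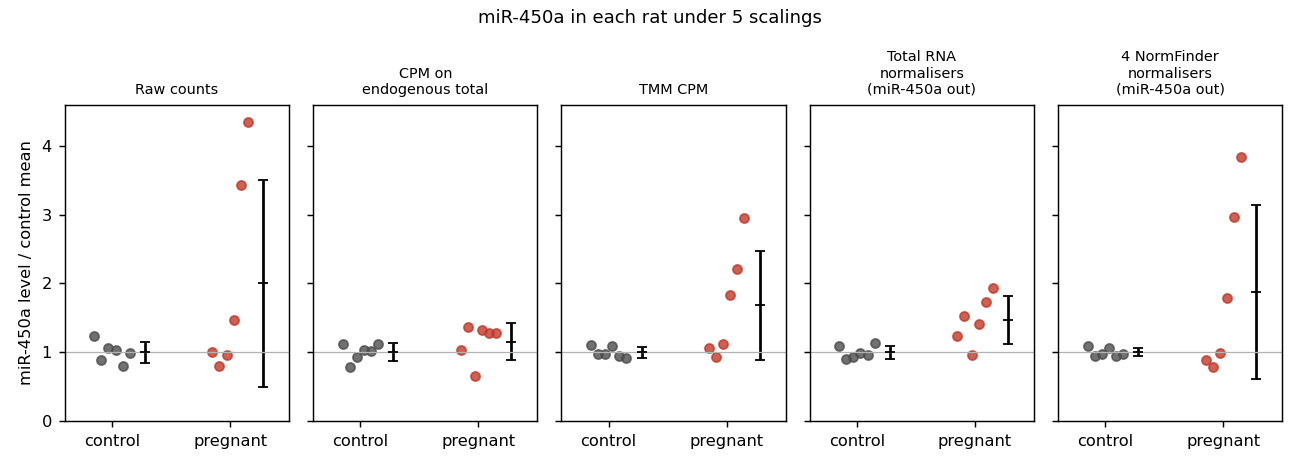
miR-450a level divided by the control mean (y axis, linear from 0) for control and pregnant rats under 5 scalings; points are rats in the order 1 to 6, and the bars beside them give mean ± SD, n = 6. Pregnant rats 4 to 6, the 3 right-hand red points, stay above all controls in every panel, and the ratio of means runs from 1.15 on plain CPM to 2.003 on raw counts.

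Age did not divide the values evenly. The 2 older rats of each group, of 239 days or more, had 6376 to 7213 TMM CPM of miR-450a in controls and 6932 to 7323 in pregnancy. The 4 younger control rats had 6007 to 7159 CPM and the 4 younger pregnant rats 6043 to 19248, so the highest values, those of pregnant 4, 5 and 6, all came from younger pregnant rats. In the younger rats alone the log2 difference was 0.98 (SE 0.43). With pregnant 5 and pregnant 6 both left out it was 0.25 (SE 0.19), and without pregnant 6 alone it was 0.46. Leaving out each other rat in turn gave 0.63 to 0.84.

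Markers of other sources of plasma miRNA were summed in each rat. The summed TMM CPM of the red cell miRNAs miR-144 and miR-451 was 17593 to 85094 in controls and 6924 to 184963 in pregnant rats, with 71999, 184963 and 102898 in pregnant 4, 5 and 6, so that pregnant 4 lay within the control range. The 4 platelet probes, miR-126, miR-191, miR-223 and miR-24, summed to 9906 to 20557 CPM in controls and to 17226, 43610 and 72965 in those 3 rats, where again pregnant 4 lay within the control range. Of these probes miR-24 stood at 1 count, the lowest value of the table, in all 12. The liver probes miR-122 and miR-192 summed to 14216 to 312429 CPM in controls and to 240086, 84244 and 404200 in the same 3, of which only pregnant 6 exceeded the controls. The highest liver sum, 723449 CPM, was that of pregnant 3. The skeletal muscle probes miR-1, miR-133a and miR-206 summed to 9041 to 18820 CPM in controls and to 9017, 20767 and 10978 in pregnant 4, 5 and 6. Rank correlations of the red cell, platelet, liver and muscle sums with miR-450a over the 12 rats were 0.62, 0.52, 0.64 and 0.10. The ratio of the raw counts of miR-451 and miR-23a was 0.945 to 6.63 in controls and 2.83, 5.49 and 1.298 in pregnant 4, 5 and 6. The study measured haemolysis with the same miRNAs by RT-qPCR, and all its samples passed. Ratios of counts from different probes cannot be read against that threshold. miR-23a itself had 1005 counts in pregnant 6, against 197 in control 1, the highest control. The part of these sources in the miR-450a values was not tested.

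miR-542 comes from the hairpin closest to the miR-450 pair among the mates, and both of its arms have a probe. Raw counts of miR-542-3p were 8, 2, 2, 3, 3 and 3 in controls 1 to 6 and 4, 5, 10, 1, 13 and 10 in pregnant rats 1 to 6. Those of miR-542-5p were 3, 3, 5, 4, 2 and 4 in controls and 3, 8, 2, 1, 12 and 11 in pregnant rats. Both arms had their highest count in pregnant 5 and both were at 1 in pregnant 4, the rat with the third highest miR-450a. Pregnant 3, with 10 counts of the 3p arm, had 2 of the 5p arm.

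On TMM CPM the 3p arm averaged 372 ± 206 in controls and 685 ± 385 in pregnant rats (SD, n = 6 each), an edgeR log2 fold change of 0.88 (SE 0.42), with an unadjusted p of 0.0511 and an adjusted p of 0.866. The 5p arm averaged 376 ± 94.2 and 562 ± 362 CPM, with a log2 fold change of 0.66 (SE 0.40) and an edgeR adjusted p of 0.866. Neither passed the test, and for both the control and pregnant ranges overlapped.

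miR-351, which carries the miR-125 seed, had 7, 4, 3, 6, 4 and 3 counts in controls and 4, 10, 3, 2, 7 and 7 in pregnant rats. Its mean was 491 ± 173 TMM CPM in controls and 560 ± 354 in pregnant rats. Its highest TMM CPM came from pregnant 2, the rat with the lowest pregnant raw count of miR-450a. On plain CPM, however, pregnant 2 was the highest rat for both, with 1937 CPM of miR-351 and 9297 of miR-450a. The edgeR log2 fold change of miR-351 was 0.17 (SE 0.38), with an adjusted p of 0.984.

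miR-503 had 2, 3, 4, 2, 3 and 3 counts in controls and 2, 3, 2, 4, 7 and 4 in pregnant rats, the lowest mean of the cluster. Its log2 fold change was 0.24 (SE 0.30), with an edgeR adjusted p of 0.984. miR-322 had 4, 2, 5, 5, 1 and 6 counts in controls and 1, 6, 1, 2, 6 and 8 in pregnant rats. Its level was 403 ± 191 TMM CPM in controls and 378 ± 258 in pregnant rats, and its log2 fold change was -0.06 (SE 0.42), with an edgeR adjusted p of 0.984. For these 3 mates the low and high counts were spread over both groups.

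By edgeR's quasi-likelihood test over all 420 endogenous probes, 0 of 5 mates were called at an adjusted p of 0.05 and 0 of 5 at an unadjusted p of 0.05. Over the panel 0.0% of probes were called after adjustment and 5.24% without it, 4.05% being higher in pregnant rats. Over the 187 probes that met the minimum of 10 counts in 6 rats the shares were 0.0% and 5.88%. DESeq2 and limma-voom likewise called 0 of 5 mates with or without adjustment. The median log2 fold change of the mates was 0.24, against 0.02 over all 420 probes. No mate had raw counts that separated the groups, and neither did any other endogenous probe (0.0%). On TMM CPM 0.238% of probes separated them, which was 1 probe, miR-183, named after its values were seen. None of the 5 mates met that minimum.

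Set against counting scatter, the scatter of the mates between rats was low beside that of miR-450a. The ratio of variance to mean of the raw counts, which is near 1 for pure counting scatter, was 0.622 for miR-503, 1.13 for miR-351, 1.51 for miR-322, 2.66 for miR-542-5p and 2.88 for miR-542-3p. Over 220 probes with means between 1 and 10 its median was 1.14, and for the exogenous probes with means like those of the mates it was 1.14 (cel-miR-248) and 0.707 (osa-miR442), below both arms of miR-542. The exogenous probe with the highest ratio, 2.95, was ath-miR159a, with a mean of 19.5 counts. For miR-450a it was 53.2. At equal relative spread this ratio grows with the mean count, so it does not show that the mates varied less in relative terms.

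For none of the mates was a relation with miR-450a detectable. On log2 TMM CPM over the 12 rats, Spearman's rho with miR-450a was 0.41 for miR-542-3p (Pearson's r 0.26), 0.00 for miR-351 (r -0.15), -0.03 for miR-503 (r 0.30), -0.10 for miR-542-5p (r 0.27) and -0.20 for miR-322 (r 0.16). Permutation p-values for rho, two-sided, were 0.193, 1, 0.920, 0.769 and 0.529, and after Benjamini-Hochberg adjustment over the 419 other endogenous probes they were 0.629, 1, 0.973, 0.916 and 0.803. Those for r were 0.414, 0.626, 0.344, 0.395 and 0.624, or 0.670, 0.841, 0.606, 0.657 and 0.841 after the same adjustment. The mates took places 61, 186, 196, 213 and 260 of 419 in the order of rho. miR-542-3p, which had the highest rho of the 5, still had 60 other probes above it. The 234 probes with a mean raw count under 10 had a median rho of -0.13 on this scale. Exogenous probes without a spike-in ran from -0.56 (osa-miR442) to -0.01 (cel-miR-254), and from -0.14 to 0.43 on raw counts. miR-24, fixed at 1 count in every rat, had a rho of -0.29 and an r of -0.60 on TMM CPM. For low counts 0 was therefore not a neutral mark on this scale. The part of scaling in the rhos of the mates was not tested. After adjustment 0.239% of the 419 probes passed, which was 1 probe, miR-202, whose rho was -0.91 and which was named after its value was seen.

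**Figure D4:**
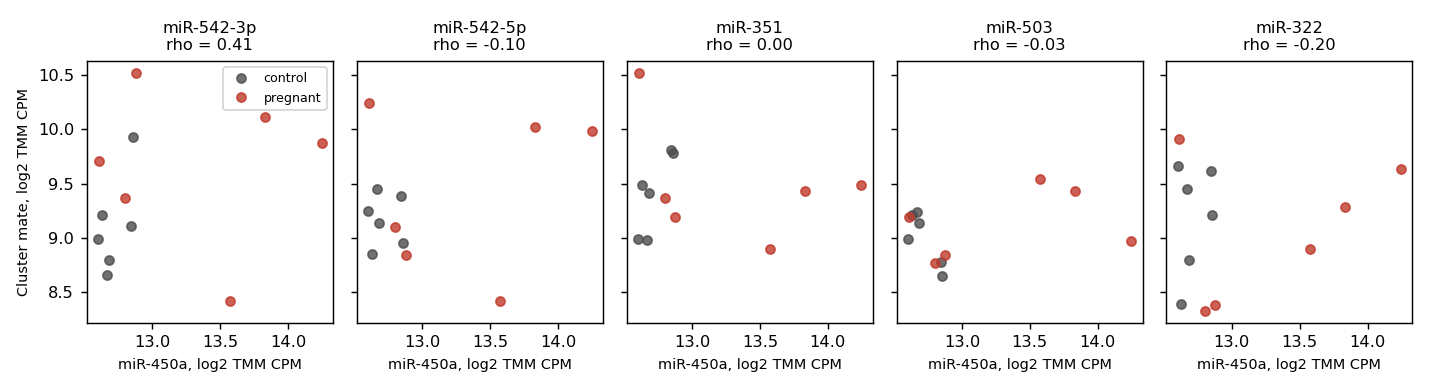
log2 TMM CPM of each cluster mate (y axis) against that of miR-450a (x axis) in 6 control (grey) and 6 pregnant (red) rats, with Spearman's rho over all 12. The 3 red points at the right of each panel are pregnant 4, 5 and 6, and pregnant 4, the leftmost of them, holds the lowest point of the panel for miR-542-3p, miR-542-5p and miR-351 and the highest for miR-503.

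The 2 rats farthest from the median of miR-450a were pregnant 6 and pregnant 5. Without them rho was 0.09 for miR-542-3p, -0.21 for miR-351, -0.20 for miR-503, -0.66 for miR-542-5p and -0.47 for miR-322, and r was -0.25, -0.36, 0.36, -0.64 and -0.22 in the same order. The permutation p of miR-542-5p was then 0.0428 unadjusted, for a relation in the opposite sense. With only pregnant 4 left out, rho of miR-542-3p was 0.66, with a permutation p of 0.0317 unadjusted and 0.445 adjusted over all probes. Within the 6 pregnant rats rho was 0.26, -0.09, 0.31, -0.14 and 0.14, and within the 6 control rats 0.37, 0.66, -0.60, -0.03 and -0.14, none with an exact permutation p under 0.175.

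The scale changed the sign for 3 mates. On raw counts, rho with miR-450a was 0.23 for miR-542-3p, 0.08 for miR-351, 0.45 for miR-503, 0.34 for miR-542-5p and 0.43 for miR-322. On plain CPM these were 0.12, 0.03, 0.23, 0.39 and 0.49. By unadjusted permutation p, 0 of 5 mates passed on any of the 3 scales. Over the panel 54 of 419 probes passed on TMM CPM, 86 of 405 on raw counts and 8 of 419 on plain CPM. At these shares 0 of 5 does not set the mates apart.

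Summed over the 5 mates, the raw counts were 24, 14, 19, 20, 13 and 19 in controls and 14, 32, 18, 10, 45 and 40 in pregnant rats. The sum was highest in pregnant 5 and 6 and lowest in pregnant 4, so of the 3 rats rich in miR-450a the mates were high in 2. The rank correlation of the sum with miR-450a was 0.41 on raw counts and 0.16 on TMM CPM. Its rho with the count of the rat's median endogenous probe was 0.75, and that of miR-450a with the same count was 0.64 on raw counts. The part of lane-wide signal in the summed mates was not tested.

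**Figure D5:**
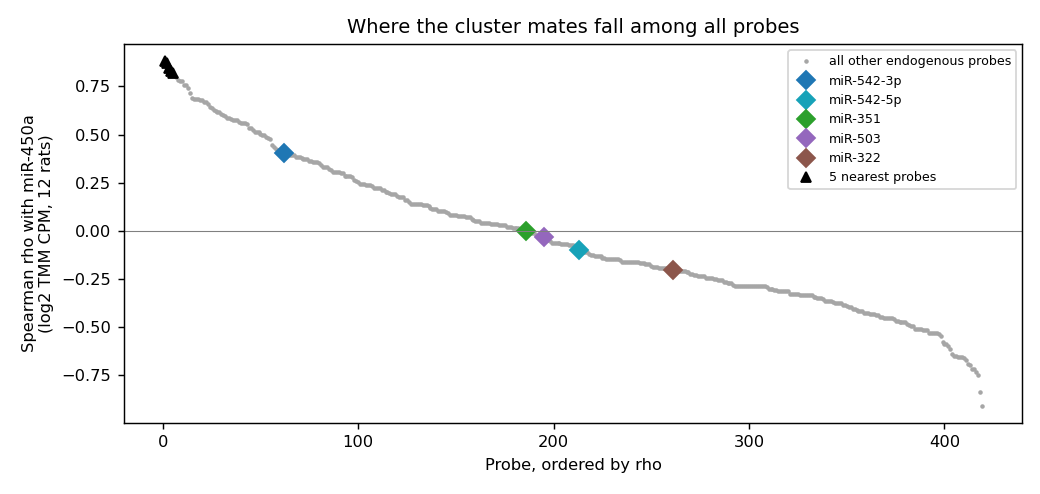
Spearman's rho with miR-450a over 12 rats on log2 TMM CPM (y axis) for 419 endogenous probes in descending order (x axis). The 5 cluster mates (diamonds) lie between 0.41 and -0.20, within the body of the curve, and the 5 probes nearest to miR-450a (triangles) lie at 0.82 and above.

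The probes whose pattern was most like that of miR-450a came from outside the cluster. Among the other 186 probes with at least 10 counts in 6 rats, the 5 nearest by rho on log2 TMM CPM were miR-27b (0.88), miR-29a (0.87), miR-22 (0.85), miR-1224 (0.83) and miR-23a (0.82). miR-23a and miR-27b are known to belong to paralogous clusters of another family. miR-27b had 27 counts in pregnant 2 and 1177 in pregnant 6, and TMM CPM of 3399 and 86139 in these rats. miR-1224 ran from 6 counts in pregnant 2 to 45 in pregnant 6. All 5 were at their lowest in pregnant 2 and at their highest raw count in pregnant 6, except miR-29a, which had 883 counts in pregnant 5 and 873 in pregnant 6. By rank their order in the 6 pregnant rats was that of miR-450a for miR-27b and miR-23a. On plain CPM the 5 correlations were 0.06, 0.24, -0.19, -0.12 and 0.25.

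miR-450a followed the depth of the rat on 2 of the 3 scales. Its rho with the endogenous total, taken without it, was 0.68 on raw counts, 0.78 on TMM CPM and -0.16 on plain CPM. The slope of its log2 raw count on the log2 total was 1.03, where 1 means a constant share of the total. The median slope of the 38 probes above background in all rats was 0.21, and the slope of miR-450a was number 22 of these 38 from the lowest. The part of depth in the miR-450a differences between rats was not tested.

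The relatives of the mates by seed, taken as lists chosen with earlier results known, held no calls either. Over the 420 endogenous probes edgeR called 0.0% with adjustment and 5.24% without, so 0 calls in such short lists says little about the relatives. Of the 4 relatives of miR-322 (miR-15b, miR-16, miR-195 and miR-497), 0 were called by edgeR with or without adjustment, and miR-16 had 1 to 1861 counts and exceeded background in 10 of 12 rats, where miR-322 did in none. miR-195 and miR-497, like miR-322, exceeded it in no rat, beside 54.8% of all endogenous probes. Of the 2 relatives of miR-351, 0 were called, and miR-125a-5p and miR-125b-5p exceeded background in 6 and 2 of 12 rats. Their log2 fold changes were -0.37 (SE 0.31) and 0.61 (SE 0.50).

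A list of other miRNAs known from placenta and embryo was examined beside the cluster. Of its 22 probes, 0 were called after adjustment and 1 without it, beside 5.24% of all endogenous probes without adjustment, and 16 were above background in no rat, beside 54.8% of all. The one was miR-127, an imprinted miRNA of placenta and embryo, with a log2 fold change of -1.12 (SE 0.51), a mean raw count of 3.33 and an edgeR adjusted p of 0.866. miR-466b and miR-466d exceeded background in 12 of 12 rats, with log2 fold changes of 0.12 (SE 0.23) and -0.07 (SE 0.25). The summed level of the 22 was 28231 to 32660 TMM CPM in controls and 23743 to 33486 in pregnant rats. In pregnant 4, 5 and 6, the rats with the most miR-450a, it was 31760, 23743 and 26420. Its rank correlation with miR-450a over the 12 rats was -0.41. The effective totals that divide these counts were largest in pregnant 5 and 6, at 14446 and 13664, against 10397 in control 1, the highest control. This sum was not compared on raw counts or plain CPM, so its direction in these rats holds for TMM CPM only.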

How the data were processed

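The values deposited by the authors are raw counts, neither corrected for background nor normalised, of a rat miRNA codeset run on 1 nCounter cartridge of 12 samples. The lowest value of the table is 1. Groups came from the sample labels. Each rat is 1 sample and 1 replicate, and 0 sample columns went unused. The cluster probes, the lists of relatives and markers and the tests were chosen with earlier results of these data known.

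Background was the mean or mean + 1 SD of 4 exogenous probes without a spike-in, in place of the negative controls, which were not used here. TMM factors were computed over the 187 endogenous probes that had 10 counts or more in 6 or more rats, and TMM CPM are scaled to the effective total of these probes. Plain CPM are scaled to the endogenous total. log2 CPM for correlations had a prior count of 2. The edgeR quasi-likelihood test was fitted to all 420 endogenous probes for the mates, which miss the filter, and to the 187 for miR-450a, with Benjamini-Hochberg adjustment over each table. Correlations had 100000 permutations over 12 rats and exact permutation within groups. Named outside the cluster were the 5 probes nearest to miR-450a by rho among those passing the filter, and members of the lists.

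The low counts limit the precision. SDs come from the spread between rats, and the exact interval of a share of rats covers the sampling of rats. SEs of edgeR values were derived from the test's F statistic, with the dispersion shared over probes. For probes with few counts they can be too small. For miR-503, at 0.24 (SE 0.30), the edgeR unadjusted p was 0.584, larger than that SE implies. Alternatives were other scalings, filters, tests, age class, a replicate block, background subtraction, other backgrounds and leaving out rats. Numbers of replicates did not pair the rats. The count fits were made in R 4.3.3 with edgeR 4.0.16, beside DESeq2 1.42.0 and limma 3.58.1. Correlations used scipy 1.17.1 under Python 3.11.15, with pandas 2.3.3 and numpy 2.4.6.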

Additional observations from a re-analysis of the deposited data

Results flagged for a closer look

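Among 24 sets of 6 values (6 probes, 2 groups, raw counts and TMM CPM), 3 held a rat far from the rest of its group by Dixon's criterion, where chance gives about 1 in 20. The 24 sets hold the same counts on 2 scales and are not separate trials, and 2 of the 3 are the same count of miR-542-3p. miR-542-3p had 8 counts in control 1, the next control being at 3, and 769 TMM CPM in the same rat, the next control being at 383. miR-351 had 1259 TMM CPM in pregnant 2, the next pregnant rat being at 512. All 3 values rest on 10 counts or fewer, and neither miRNA exceeded the mean + 1 SD background in these rats.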

How the results depend on the processing

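Of 303 values under alternatives, 267 kept their direction and their side of the threshold or moved by less than the error, 34 changed sign and 2 moved further. No alternative gave a call. Scaling by the library size put the median log2 fold change of the tested probes at -0.32, against 0.05 in the main fit. It gave 0.20 for miR-450a, -0.23 for miR-351 and -0.29 for miR-503. Relative to the median of -0.32 miR-450a was at 0.53. After subtraction of the background mean the mates sit almost wholly at the floor of 1, and the log2 fold changes were -0.45 for miR-351 and miR-542-3p and -0.60 for miR-503 and miR-542-5p, while rho of miR-542-3p was -0.19. Chosen after seeing the data, leaving out the 2 deepest rats gave 0.25 for miR-450a, and the younger rats alone gave 0.10 for miR-322.

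The sign of rho also changed for 3 mates. For miR-322 it was 0.43 on raw counts, 0.49 on plain CPM, 0.17 on deviations from the group means and 0.14 within pregnant rats, with a Pearson r of 0.16. For miR-503 these were 0.45, 0.23, 0.33, 0.31 and 0.30. For miR-542-5p they were 0.34 on raw counts, 0.39 on plain CPM and 0.15 on deviations, with an r of 0.27. On TMM CPM miR-24, fixed at 1 count in every rat, also had a negative rho, of -0.29. The cause of the sign changes was not tested.

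Leaving out 1 rat at a time, the log2 difference ran from 0.46 to 0.84 for miR-450a, from 0.62 to 1.25 for miR-542-3p, from 0.47 to 0.81 for miR-542-5p, from 0.07 to 0.33 for miR-503, from -0.18 to 0.29 for miR-351 and from -0.31 to 0.081 for miR-322. rho ran from 0.27 to 0.66 for miR-542-3p, from -0.33 to 0.13 for miR-542-5p, from -0.27 to 0.091 for miR-503, from -0.19 to 0.22 for miR-351 and from -0.37 to 0.027 for miR-322. For miR-542-3p 6 of 23 alternatives had an unadjusted p under 0.05, the smallest 0.0112 without control 1, and its smallest adjusted p over all of them was 0.592.

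With the replicate number as a block, edgeR made 0 calls, 3 probes passing unadjusted against 11 without the block, and the log2 values were 0.62 for miR-450a, 0.85 for miR-542-3p, 0.57 for miR-542-5p, 0.20 for miR-503, 0.17 for miR-351 and -0.09 for miR-322. Rats of the same number correlated from -0.34 to 0.27, 2 of 6 pairs over 0.1, so the numbers do not pair the rats. No mate exceeded the mean + 1 SD of the exogenous probes in any rat, and at this depth differences of the mates between groups were not detectable.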
